A study of Rattus norvegicus with 6 samples.

Results

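The smooth muscle type contractile genes are 10 genes whose proteins make up or regulate the actin filaments of contractile cells: Acta2, Actg2, Tagln, Cnn1, Cnn2, Cald1, Tpm1, Tpm2, Lmod1 and Myl9. They were picked by gene symbol, and all 10 were found among the 18420 genes of the deposited table. Their names were chosen from measured values, since the difference between the groups in these same 6 libraries was already known. For this reason the difference between the groups is given for these genes as a description. Where the fit across all genes calls some of them, the count describes that fit and supports nothing about them.

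In smooth muscle, thin filaments built of the actins Acta2 and Actg2 slide along filaments of myosin II when the regulatory light chain, encoded by Myl9, is phosphorylated by the kinase Mylk. Tropomyosins (Tpm1 and Tpm2) run along the thin filament, calponins (Cnn1 and Cnn2) and caldesmon (Cald1) bind it and restrain the myosin ATPase, transgelin (Tagln) crosslinks it and leiomodin (Lmod1) starts new filaments. Many of these genes are controlled by serum response factor (SRF) with cofactors of the myocardin family, which bind a DNA element named the CArG box. Several are also expressed outside smooth muscle, in myofibroblasts and in cultured connective tissue cells that form stress fibers.

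The cells were primary articular chondrocytes from the knees and hips of male Sprague-Dawley rats weighing 180–220 g, grown in culture to the third passage. In the TNF-α group (3 libraries), they were exposed to TNF-α, an inflammatory cytokine, at 10 ng/ml for 6 h. In the TNF-α+NFL group (3 libraries), the same 6 h exposure was followed by 24 h with NFL. NFL is Nanofat lysate, the cell-free product of freeze–thawing the stromal vascular cells of rat abdominal fat. The paper gives these treatment times but no separate time of harvest. Read from them, harvest was at 6 h and at 30 h. On this reading NFL and the time of harvest differed together and cannot be told apart. All 6 libraries carry the TNF-α exposure, since untreated cells were not analysed here. No gene was deleted or overexpressed, so there is no targeted gene to check the group names by, and each direction rests on the names in the deposited table. The headings of the study's own list of changed genes can be read with these 2 names exchanged, and the sources used here do not settle which reading holds. If the names were exchanged, each direction given between the groups would turn, so TNF-α and TNF-α+NFL stand for the libraries labelled so. The study describes the replicates of a group as independent and biological, without saying whether each came from its own animal or culture, so any p-value measures only the spread between these libraries.

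The libraries held between 19344893 and 19725135 estimated counts. The Pearson correlation of log expression between libraries across genes was 0.9863 to 0.9917 within groups and 0.9878 to 0.9898 between them. TNF-α replicate 1 differed from the others in its most abundant gene, with 4.46% of its counts in Fn1 against 3.41% to 3.59% in the others. Its mean correlation with the other libraries was 0.988, the same as that of TNF-α replicate 3. By transcript length, TNF-α replicates 2 and 3 were the pair apart. Genes in the shortest quartile of transcript length had a median log2 deviation from the mean of all libraries of 0.0446 and 0.0708 in these replicates. In TNF-α replicate 1 it was -0.0374, and in the TNF-α+NFL libraries it was -0.0377 to -0.0161. Many of the calls and medians that turn on 1 library are given with and without it.

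Per transcript length, the contractile genes spanned a wide range of levels. The deposited TPM values (transcript abundance scaled to length, with an equal sum per library) put Acta2 first, at 2945 ± 95.3 in the TNF-α group and 3667 ± 112 in the TNF-α+NFL group (SD, n = 3 each). Tagln followed at 2379 ± 186 and 2930 ± 44.1 TPM. Both abundant genes code for proteins that are among the most used markers of smooth muscle and myofibroblasts. Cald1 (839 ± 19.7 and 1073 ± 36.6 TPM), Tpm2 (799 ± 39.2 and 971 ± 18.4 TPM) and Tpm1 (539 ± 18.5 and 611 ± 6.18 TPM) formed a middle tier. Cald1 and Tpm2 were neighbours whose ranges overlapped in the TNF-α group, at 817 to 854 and 769 to 843 TPM. Their order was thus not resolved there, while no other pair of neighbours overlapped within a group. Lower levels were measured for Cnn2 (344 and 372 TPM), Myl9 (171 and 220 TPM), Actg2 (30.9 and 39.1 TPM), Lmod1 (15.04 and 18.64 TPM) and Cnn1 (7.86 and 11.2 TPM).

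The summed level of the 10 genes was 7716, 8171 and 8317 TPM in TNF-α replicates 1, 2 and 3. In TNF-α+NFL replicates 1, 2 and 3 it was 9925, 10090 and 9726 TPM. Together the genes took 0.807% of all transcripts in the TNF-α group and 0.991% in the TNF-α+NFL group, with no overlap between the groups. Acta2 alone held 35.9% to 37.5% of the sum in each of the 6 libraries, and Acta2 with Tagln 65.0% to 66.9%. Other shares did separate the groups. That of Cnn2 was 4.12% to 4.35% in the TNF-α libraries and 3.61% to 3.86% in the TNF-α+NFL libraries, and that of Tpm1 was 6.61% to 6.73% and 5.99% to 6.3%. The share of Myl9 was separated the other way, at 2.08% to 2.19% and 2.21% to 2.23%. In bulk RNA, more cells that express these genes and more RNA of them per cell cannot be told apart.

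**Figure D1:**
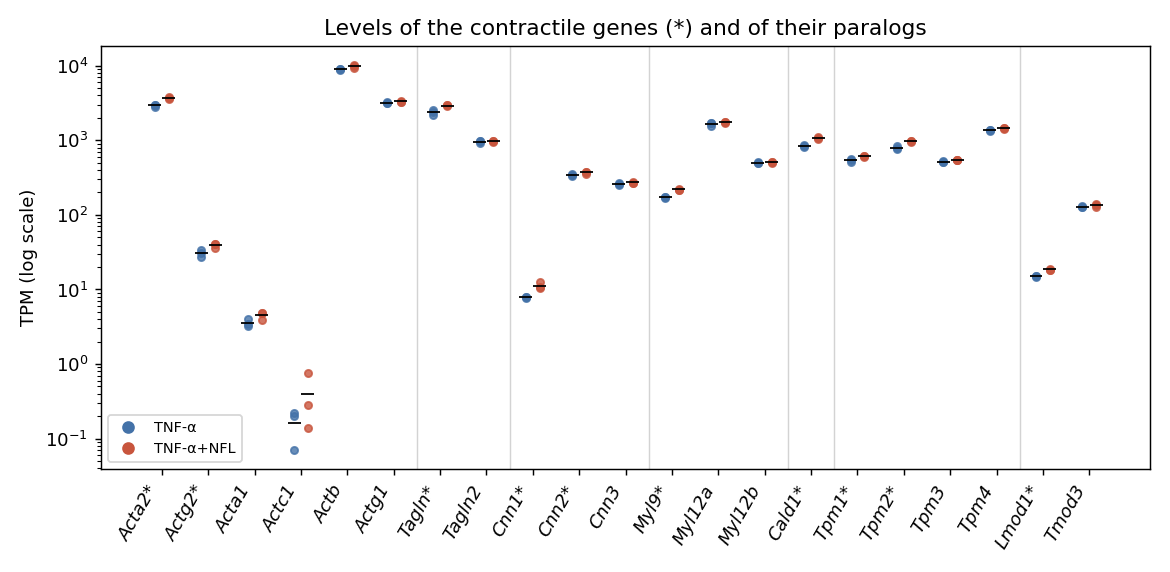
Deposited TPM (vertical axis, log scale) of the contractile genes, marked with an asterisk, and of their paralogs, grouped by family. Points are the 3 libraries of each group and lines are group means. Acta2 lay at 2945 and 3667 TPM and its paralog Actb at 8942 and 9855 TPM, whereas Cnn1 lay at 7.86 and 11.2 TPM.

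The smooth muscle markers were present without the full smooth muscle profile being abundant. All 7 defining markers of smooth muscle that were listed had counts (Myh11, Myocd, Smtn, Des, Cnn1, Lmod1 and Acta2), from Des at 6.34 TPM to Acta2 at 2945 TPM in the TNF-α group. Leaving Acta2 aside, none of them exceeded the 74.3 TPM of Smtn in the TNF-α+NFL group. These third-passage cells, labelled chondrocytes and all exposed to TNF-α, held little of the defining transcripts of cartilage. The paper reports by qPCR that TNF-α lowered Sox9, Col2 and ACAN. What part passage or TNF-α has in the levels here was not tested. Sox9, the master regulator of chondrocytes, was at 4.42 and 4.66 TPM, Col2a1 (type II collagen) at 7.72 and 9.23 TPM, and Matn1 (matrilin 1) at 0 in the 3 TNF-α libraries. Col11a1 was the most abundant chondrocyte marker, at 420 and 500.1 TPM. Of the 6 markers of synovial lining and fibroblasts, Thy1 was the highest, at 2453 and 2677 TPM, and Cd55 the lowest, at 28.9 and 32.1 TPM.

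Some marker sums differed between the groups in the way the contractile genes did. The 13 chondrocyte markers summed to 443 to 493 TPM in the TNF-α group and 522 to 577 TPM in the TNF-α+NFL group, most of it Col11a1. In edgeR's main fit none of these markers was called (background 0.408% higher and 0.204% lower), and Col11a1 had an adjusted p of 0.052. In that fit 2 had an unadjusted p under 0.05 (Col2a1 and Col11a1, both higher, against 5.66% of all genes). Among these markers DESeq2 gave an adjusted p for Col11a1 alone. DESeq2 and limma-voom called it higher, as they did 1.57% and 0.423% of the genes to which they gave an adjusted p. It was also called higher by edgeR without TNF-α replicate 1 (adjusted p = 0.000554), where 3.43% of all genes were. With the length trend removed, as described below, edgeR called it too (adjusted p = 0.00737). In this list 1 marker was called higher with DESeq2's size factors, without a filter on low counts and with at least 10 counts in every library. None was called with a replicate block, on either log2(FPKM) scale or with any other library left out. The 6 adipocyte markers, of which 2 were high enough to test, summed to 32.1 to 32.7 and 33.1 to 37.7 TPM, almost all of it Fabp4 (30.4 and 33.8 TPM), with Lep lowest at 0.01 and 0.03 TPM. The macrophage markers (5 of 6 found) ran the other way, at 105 to 113 and 98.2 to 101 TPM. In that list Cd14 was highest (67.9 and 61.8 TPM), and Ptprc, which marks all leukocytes, was at 0.0533 and 0.02 TPM. Sums of the 8 pericyte markers overlapped, at 396 to 481 and 440 to 472 TPM, with Pdgfrb highest (379 and 402 TPM) and with Higd1b (0.227 and 0.0633 TPM) and Rgs5 (0.0633 and 0.263 TPM) lowest. Sums of the 6 synovial lining and fibroblast markers overlapped too, at 5246 to 5944 and 5574 to 5744 TPM. The endothelial markers (5 of 6 found) summed to at most 0.38 TPM in any library, with Tek highest (0.113 and 0.103 TPM) and Kdr at 0 in all 6. What part these other cell types have in the contractile gene values was not tested.

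All 10 contractile genes had a higher mean in the TNF-α+NFL group, by 5.62% (Cnn2) to 39.6% (Cnn1). For 9 of the 10, the 3 libraries of the TNF-α+NFL group all lay above the 3 of the TNF-α group. Over all 13250 genes tested, 8.66% were separated in this direction and 8.17% in the other. The median log2 fold change was 0.29 over the 10 genes and -0.0035 over all genes tested. In edgeR's quasi-likelihood fit, with a threshold of 0.05 on the adjusted p, 5 of the 10 were called higher (Acta2, Cald1, Lmod1, Myl9 and Tpm2), where 0.408% of all genes were called higher and 0.204% lower. Since these differences chose the genes, nothing is read from either count.

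**Figure D2:**
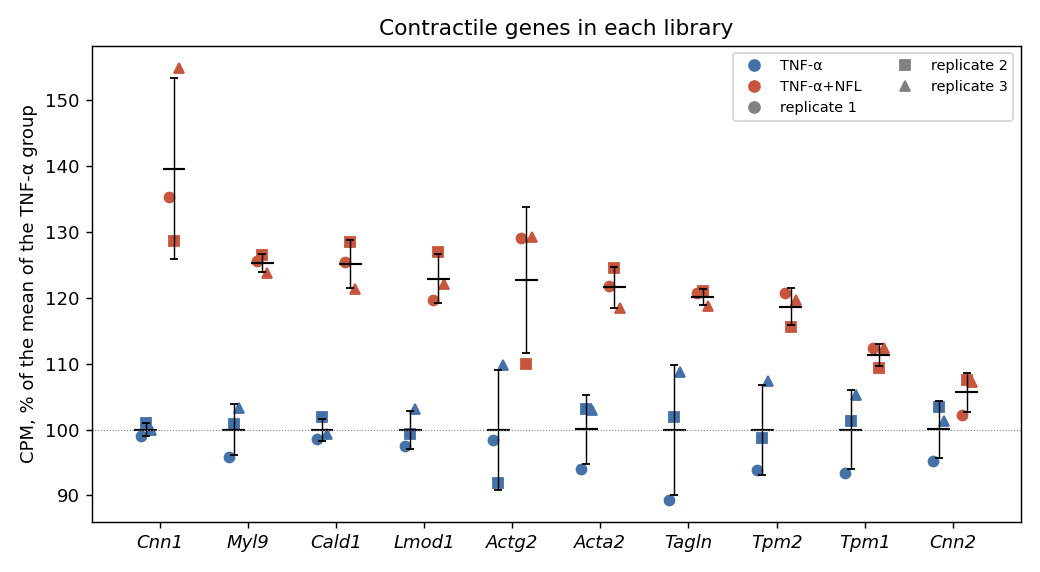
Normalized counts (CPM) of each contractile gene in each library, as a percentage of the gene's mean in the TNF-α group (vertical axis, not starting at 0). Colours are groups, shapes are replicate numbers, and black bars are the mean ± SD of 3 libraries. The groups do not overlap except for Cnn2, and TNF-α replicate 1 is the lowest library for 9 of the 10 genes.

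The 2 smooth muscle actins, α (Acta2, Entrez gene 81633) and γ (Actg2, Entrez gene 25365), were read as CPM, the counts scaled to library size with the TMM factors. Acta2 was at 1964, 2156 and 2151 CPM in TNF-α replicates 1, 2 and 3, and at 2547, 2603 and 2475 CPM in TNF-α+NFL replicates 1, 2 and 3. The lowest TNF-α+NFL library exceeded the highest TNF-α library by 14.8%. The mean of Acta2 was 2090.0 ± 109 against 2542 ± 64.2 CPM (SD, n = 3 each), which gave a log2 fold change of 0.28 with a standard error (SE) of 0.043. Actg2, the actin of visceral smooth muscle, was much scarcer, at 19.8, 18.5 and 22.1 CPM in the TNF-α group and 26.0, 22.2 and 26.1 CPM in the TNF-α+NFL group. Replicate 2 was the lowest library of both groups, and the TNF-α+NFL value of that replicate cleared the highest TNF-α library by only 0.136%. The log2 fold change was 0.30 (SE 0.082), the error being larger than that of Acta2. The ratio of Acta2 to Actg2 in TPM was 96.1 ± 11.5 and 94.4 ± 10.4, which differed by less than the spread of libraries. Actin genes are near-identical in their coding sequence and share reads. Estimated counts of Acta2 were fractional in all 6 libraries and those of Actg2 in 4, so the split between actins is uncertain.

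Transgelin (Tagln, Entrez gene 25123), an actin crosslinker that is an early marker of the smooth muscle lineage, was at 1127, 1286 and 1372 CPM in the TNF-α group. In the TNF-α+NFL group it was at 1524, 1527 and 1499 CPM. The TNF-α libraries were spread widely, with a coefficient of variation of 9.88%, the largest among the 10 genes, while that of the TNF-α+NFL libraries was 1.03%. The groups did not overlap. The log2 fold change was 0.27 (SE 0.062), and without TNF-α replicate 1, the lowest library, it was 0.19.

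Calponins showed both extremes of the set. Cnn1 (Entrez gene 65204), the calponin of differentiated smooth muscle, was at 5.76, 5.87 and 5.81 CPM in the TNF-α group and 7.86, 7.48 and 9.01 CPM in the TNF-α+NFL group. The TNF-α libraries had a coefficient of variation of 0.97%, and TNF-α+NFL replicate 3 was the highest. These values rest on few reads, 110, 116 and 115 estimated counts in the TNF-α libraries and 154, 146 and 177 in the TNF-α+NFL libraries. The log2 fold change of Cnn1 was 0.48 (SE 0.11), and 0.40 without TNF-α+NFL replicate 3. Cnn2 (Entrez gene 690976), the calponin found in many nonmuscle cells, had the lowest log2 fold change, at 0.079 (SE 0.043). It was at 162, 176 and 172 CPM in the TNF-α group and 173, 183 and 182 CPM in the TNF-α+NFL group. Here TNF-α+NFL replicate 1 lay below TNF-α replicate 2, so the groups overlapped. In TPM, the ratio of Cnn1 to Cnn2 was 0.0229 ± 0.000789 in the TNF-α group and 0.0302 ± 0.00286 in the TNF-α+NFL group (SD, n = 3 each), with no overlap.

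Caldesmon (Cald1, Entrez gene 25687), which links actin to myosin and blocks their interaction until calcium signals release it, was at 1679, 1734 and 1691 CPM in the TNF-α group. In the TNF-α+NFL group it was at 2136, 2188 and 2065 CPM. Replicates were close in both groups, with coefficients of variation of 1.70% and 2.90%, and the gap between the groups was 19.1% of the highest TNF-α library. The log2 fold change was 0.32 (SE 0.037, the smallest of the 10). It ranged from 0.30 to 0.35 when each library was left out in turn.

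The tropomyosins had similar CPM values. Tpm2 (Entrez gene 500450) was at 421, 443 and 482 CPM in the TNF-α group and 542, 518 and 537 CPM in the TNF-α+NFL group, with a log2 fold change of 0.25 (SE 0.048). Tpm1 (Entrez gene 24851) was at 435, 472 and 490 CPM in the TNF-α group and 523, 510 and 523 CPM in the TNF-α+NFL group, with a log2 fold change of 0.15 (SE 0.045). In both genes TNF-α replicate 1 was lowest and replicate 3 highest within the TNF-α group, and the groups did not overlap. The gap between the groups was 7.58% for Tpm2 and 3.92% for Tpm1. In TPM, the ratio of Tpm1 to Tpm2 was 0.660 to 0.689 in the TNF-α libraries and 0.625 to 0.636 in the TNF-α+NFL libraries, so the mix of the pair was shifted toward Tpm2 in the TNF-α+NFL group, again as a description.

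Of the regulators of myosin and of filament growth, Myl9 (Entrez gene 296313) was at 87.4, 92.1 and 94.3 CPM in the TNF-α group and 114.6, 115.5 and 113.0 CPM in the TNF-α+NFL group. The coefficient of variation of the TNF-α+NFL libraries was 1.13%, and the gap to the TNF-α libraries was 19.8%. Its log2 fold change was 0.33 (SE 0.042). Lmod1 (Entrez gene 304816), the leiomodin of smooth muscle, was at 31.9, 32.5 and 33.8 CPM in the TNF-α group and 39.2, 41.6 and 40.0 CPM in the TNF-α+NFL group. The gap between these groups was 16.1%, and the log2 fold change was 0.30 (SE 0.052). Both genes thus had tight replicates and well separated groups, although Lmod1 is the scarcer. Estimated counts of Lmod1 were fractional in all 6 libraries and those of Myl9 in 2.

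In the TNF-α group, the libraries ranked alike across most of the genes. TNF-α replicate 1 was the lowest of all 6 libraries for 9 genes, and replicate 2 was the lowest for Actg2. TNF-α replicate 3 was the highest of its group for 6 genes and replicate 2 for 4. In the TNF-α+NFL group the ranks were more mixed, with replicate 2 highest for 6 genes and lowest for 4. The genes share their libraries, so they are not independent counts of a difference. The median coefficient of variation of the 10 genes was 4.77% in the TNF-α group, against 6.31% over all genes tested, and 2.68% in the TNF-α+NFL group, against 4.65%.

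The 10 log2 fold changes stayed above 0 with any library left out, while the number of calls varied. Since the genes were chosen on this contrast, the counts of calls describe the fits and are no measure of support. Without TNF-α replicate 1, 8 of the 10 genes were past an adjusted p of 0.05 from edgeR, all except Actg2 and Cnn2. Without TNF-α replicate 2 only Cald1 and Myl9 were, and the same 2 were without TNF-α+NFL replicate 3. Without TNF-α replicate 3 there were 6. Leaving out TNF-α+NFL replicate 2 kept only Cald1, and leaving out TNF-α+NFL replicate 1 kept none in edgeR, where 9 were higher at an unadjusted p under 0.05, as were 4.2% of all genes in that fit (3.52% were lower). Of all genes, 930, 17 and 41 were called in the fits without TNF-α replicates 1, 2 and 3, and 5, 11 and 26 in those without TNF-α+NFL replicates 1, 2 and 3. The sizes moved too. Cnn2 ran from 0.045 to 0.11, Tpm1 from 0.11 to 0.19 and Tagln from 0.19 to 0.33, each lowest without TNF-α replicate 1. The median over the 10 genes was lowest without TNF-α replicate 1, at 0.26, and highest at 0.32, when TNF-α replicate 3 was left out.

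**Figure D3:**
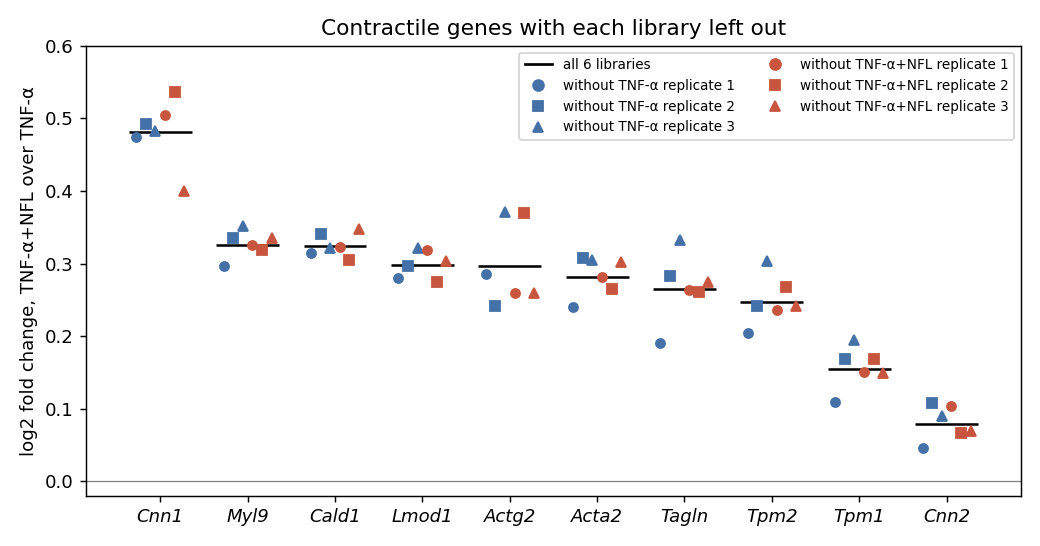
Log2 fold change of each contractile gene (vertical axis) with all 6 libraries (black lines) and with each library left out (points, coloured by the group of the library left out and shaped by its replicate number). The lowest value is that of Cnn2 without TNF-α replicate 1, at 0.045, and each value is above 0.

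Most of the genes have short transcripts. Ranked by length among the genes tested, they ran from the percentile 8.12 (Cnn2) to 79.3 (Lmod1), with Cald1 at 75.7 and Tpm1 at 27.4. Genes with short transcripts were higher in TNF-α replicates 2 and 3 than in the other libraries, as given above. With each library's trend with length removed, the log2 fold changes of Acta2, Tagln and Myl9 were 0.32, 0.32 and 0.38, and those of the longer Cald1 and Lmod1 were 0.30 and 0.27. Cnn2, the shortest, moved most for its size, from 0.079 to 0.14. The median over the 10 genes was 0.31.

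Promoter windows were searched for the element that SRF binds. RefSeq windows of 300 bases on the rat assembly GRCr8, from 250 bases before to 50 bases after the annotated start, were matched for 7 of the 10 genes, and Tagln, Myl9 and Lmod1 had none. The CArG box, an element of 10 bases that reads alike on both strands, was searched exactly and with up to 1 mismatch. It was found exactly in the window of Cnn2, 71 bases before the start. With 1 mismatch it was found in those of Acta2 (134 and 84 bases before), Tpm1 (195 and 55 bases before) and Cald1 (245 bases before, in 1 of its 2 windows). Of all 33469 windows, 1.64% held an exact match and 21.3% a match with up to 1 mismatch. The windows of Actg2, Cnn1 and Tpm2 held no match in these letters. Shown are the 3 windows with their matches nearest the start, in capitals, and that of Cnn1, as a window with no match. They lie at chr1:241172454-241172753 (Acta2, minus strand), chr7:10370263-10370562 (Cnn2, minus strand), chr8:76543366-76543665 (Tpm1, minus strand) and chr8:28908187-28908486 (Cnn1, plus strand), and each is written 5′ to 3′ on the strand of its gene.
Acta2: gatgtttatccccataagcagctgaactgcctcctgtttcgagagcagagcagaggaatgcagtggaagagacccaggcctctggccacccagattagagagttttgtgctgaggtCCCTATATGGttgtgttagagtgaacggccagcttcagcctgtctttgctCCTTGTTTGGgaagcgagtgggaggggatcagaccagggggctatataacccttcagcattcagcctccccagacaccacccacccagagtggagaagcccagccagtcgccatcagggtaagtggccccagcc
Cnn2: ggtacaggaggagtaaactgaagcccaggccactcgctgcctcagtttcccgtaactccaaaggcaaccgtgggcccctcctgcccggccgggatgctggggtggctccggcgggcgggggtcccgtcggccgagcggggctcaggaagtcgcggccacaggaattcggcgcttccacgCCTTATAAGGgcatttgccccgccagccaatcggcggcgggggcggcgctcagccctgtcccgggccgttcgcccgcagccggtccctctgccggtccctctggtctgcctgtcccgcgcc
Tpm1: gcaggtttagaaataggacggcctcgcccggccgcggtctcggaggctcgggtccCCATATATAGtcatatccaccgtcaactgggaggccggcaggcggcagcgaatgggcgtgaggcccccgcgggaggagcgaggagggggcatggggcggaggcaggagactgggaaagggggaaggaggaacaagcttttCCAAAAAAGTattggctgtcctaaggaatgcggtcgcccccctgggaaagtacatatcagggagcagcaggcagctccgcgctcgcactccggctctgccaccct
Cnn1: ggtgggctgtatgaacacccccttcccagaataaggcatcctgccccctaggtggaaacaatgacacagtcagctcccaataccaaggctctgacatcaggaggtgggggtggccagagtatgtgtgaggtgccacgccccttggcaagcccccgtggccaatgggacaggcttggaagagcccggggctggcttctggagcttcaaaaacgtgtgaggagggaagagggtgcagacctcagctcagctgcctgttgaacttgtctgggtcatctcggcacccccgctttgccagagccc
A match is a description of letters, not a bound site.

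The paralogs of the contractile genes, which serve like roles in nonmuscle cells or in striated muscle, were compared in the same fit. None of the 13 paralogs tested was called in edgeR (background 0.408% higher and 0.204% lower), 2 were higher at an unadjusted p under 0.05 (Actb and Tmod2, against 5.66% of all genes), and limma-voom called none. DESeq2 called none either, but gave no adjusted p for 4 of the 13. Their median log2 fold change was 0.044, with 0.0086 when TNF-α replicate 1 was left out and 0.068 when TNF-α replicate 2 was. Cytoplasmic β-actin, Actb, was at 5666, 5820 and 5708 CPM in the TNF-α group and 5930, 6333 and 6253 CPM in the TNF-α+NFL group, with a log2 fold change of 0.11 (adjusted p = 0.292, edgeR). Cytoplasmic γ-actin, Actg1, overlapped between the groups, with a log2 fold change of 0.020 (adjusted p = 0.911, edgeR). The striated muscle actins were scarce, with Acta1 at 3.59 and 4.51 TPM (log2 fold change 0.30, adjusted p = 0.557, edgeR). Actc1, at 0.163 and 0.393 TPM, was too low to test. Actb was called without TNF-α replicate 1 and with the length trend removed, and Actg1 turned to -0.0058 without that library.

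Among the other families, the log2 fold change of Tagln2 was -0.0083, of Cnn3 0.031, of Tpm3 0.035, of Tpm4 0.045, of Myl12a 0.044 and of Myl12b -0.018. Adjusted p-values of these 6 genes lay between 0.711 and 0.972 in edgeR, and the groups overlapped in each. Set beside their paralogs as ratios in TPM, Acta2, Tagln and Myl9 stood higher in the TNF-α+NFL group. The ratio of Acta2 to Actb was 0.313, 0.335 and 0.341 in the TNF-α libraries and 0.388, 0.371 and 0.358 in the TNF-α+NFL libraries. That of Tagln to Tagln2 was 2.35, 2.5 and 2.6 against 2.97, 3.12 and 2.92, and that of Myl9 to Myl12a was 0.109, 0.0997 and 0.1 against 0.123, 0.131 and 0.121. The groups overlapped in none of these 3 ratios. Each ratio sets a member chosen on this contrast against a gene that was not, so nothing is read from this and no test is given.

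The wider contractile machinery was followed in 6 lists of related genes: the paralogs, other smooth muscle genes, nonmuscle actomyosin and adhesion genes, myosin phosphorylation and kinase signaling genes, SRF and its cofactors, and striated muscle genes. Of their 113 genes, 110 were in the table and 85 were tested. In edgeR 4 were called higher (Myh11, Nexn, Vcl and Rock2) and 0 lower, against a background of 0.408% and 0.204% of all genes. At an unadjusted p under 0.05 there were 24 higher and 1 lower, where 5.66% of all genes were higher and 5.45% lower by that rule. DESeq2 gave no adjusted p for 24 of the 85 and called 8 higher and 0 lower (background 1.57% and 0.875% of the genes given one), and limma-voom called 4 higher and 0 lower (0.423% and 0.211%). The groups were separated in 23 genes upward and 3 downward, against 8.66% and 8.17% of all genes, and the median log2 fold change of the 85 was 0.044.

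Myh11, the myosin heavy chain of smooth muscle and its most specific marker, rose from 53.6, 45.7 and 47.2 CPM in the TNF-α libraries to 59.8, 58.3 and 61.3 CPM in the TNF-α+NFL libraries. The log2 fold change was 0.29 (SE 0.059, adjusted p = 0.0415, edgeR). Nexn, which encodes the actin-binding protein nexilin, rose from 22.6, 23.1 and 22.9 CPM to 30.5, 30.4 and 26.8 CPM, with a log2 fold change of 0.35 (SE 0.064, adjusted p = 0.0259, edgeR). Both genes belong to the 14 other smooth muscle genes, whose median log2 fold change was 0.13, with 11 of 14 above 0. At an unadjusted p under 0.05 in edgeR, 5 of the 14 were higher and 0 lower, where 5.66% and 5.45% of all genes were. Leaving out replicate 2 of the TNF-α group gave a median of 0.079, and leaving out that of the TNF-α+NFL group gave 0.077. The call of Myh11 held only without TNF-α replicate 1, among the fits that left out a library, and that of Nexn only without TNF-α replicate 1 or TNF-α+NFL replicate 3.

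Of this list, the kinase Mylk was at 20.1, 17.7 and 17.6 CPM in the TNF-α libraries and 22.3, 21.4 and 22.8 CPM in the TNF-α+NFL libraries, with a log2 fold change of 0.26 (adjusted p = 0.135, edgeR). It was called without TNF-α replicate 1. Smoothelin (Smtn), a marker of fully contractile smooth muscle, had a log2 fold change of 0.050 (adjusted p = 0.688, edgeR), and the muscle intermediate filament desmin (Des) of -0.13 (adjusted p = 0.792, edgeR). Of these 3 genes Des overlapped between the groups.

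Vcl, which encodes the adhesion protein vinculin that ties actin to the membrane, rose from 712, 691 and 674 CPM to 789, 799.9 and 804 CPM. Its log2 fold change was 0.20 (SE 0.036, adjusted p = 0.0239, edgeR). It was the sole call among 24 nonmuscle actomyosin and adhesion genes, which had a median of 0.070 (0.11 without TNF-α replicate 1), with 20 of 24 above 0. In edgeR, 10 of the 24 were higher at an unadjusted p under 0.05 and 0 lower, where 5.66% and 5.45% of all genes were. Rock2, which encodes a kinase that keeps the myosin light chain phosphorylated, rose from 381, 355 and 363 CPM to 446, 459 and 439 CPM, with a log2 fold change of 0.29 (SE 0.040, adjusted p = 0.00556, edgeR). It was the sole call among 19 genes of myosin phosphorylation and kinase signaling, which had a median of 0.020 (0.037 and 0.034 without TNF-α replicate 2 and TNF-α+NFL replicate 3). By the unadjusted rule, 4 of these 19 were higher and 1 lower. The call of Vcl was lost when any library but TNF-α replicate 1 was left out, and that of Rock2 without TNF-α replicate 2, TNF-α+NFL replicate 1 or TNF-α+NFL replicate 2. In the fit without TNF-α replicate 1, 20 genes of the 6 lists were called higher and 1 lower, where 3.43% of all genes were called higher and 3.51% lower. Of the 20, 9 were nonmuscle actomyosin and adhesion genes.

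SRF and its cofactors gave no call in edgeR among 11 genes tested (background 0.408% higher and 0.204% lower), with a median log2 fold change of -0.018. The sign of this median turned without TNF-α replicate 1 (0.034), TNF-α replicate 3 (0.0035) or TNF-α+NFL replicate 1 (0.0018). An unadjusted p under 0.05 was found for Srf and Myocd, both higher, where 5.66% of all genes were. DESeq2 gave no adjusted p for 3 of the 11 and called 1 (Myocd, adjusted p = 0.00359), and limma-voom called 0. Srf itself was at 53.8, 52.0 and 55.6 CPM in the TNF-α group and 54.7, 60.4 and 59.6 CPM in the TNF-α+NFL group, with overlap (log2 fold change 0.11, adjusted p = 0.44, edgeR). Myocd, which encodes the smooth muscle cofactor myocardin, was at 36.8, 31.3 and 25.4 CPM against 41.6, 40.9 and 43.9 CPM. Its groups did not overlap, but its TNF-α libraries had a coefficient of variation of 18.2%, and its log2 fold change of 0.44 had an adjusted p of 0.266 (edgeR). It was called when TNF-α replicate 1, its highest TNF-α library, was left out. Of 25 striated muscle genes in the table, 20 were under 1 TPM in all libraries, 4 were tested and 0 were called by edgeR or limma-voom, with 1 (Casq2) at an unadjusted p under 0.05, and DESeq2 gave no adjusted p for any of the 4. Their median of -0.063 turned to 0.16 when TNF-α replicate 2 was left out.

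**Figure D4:**
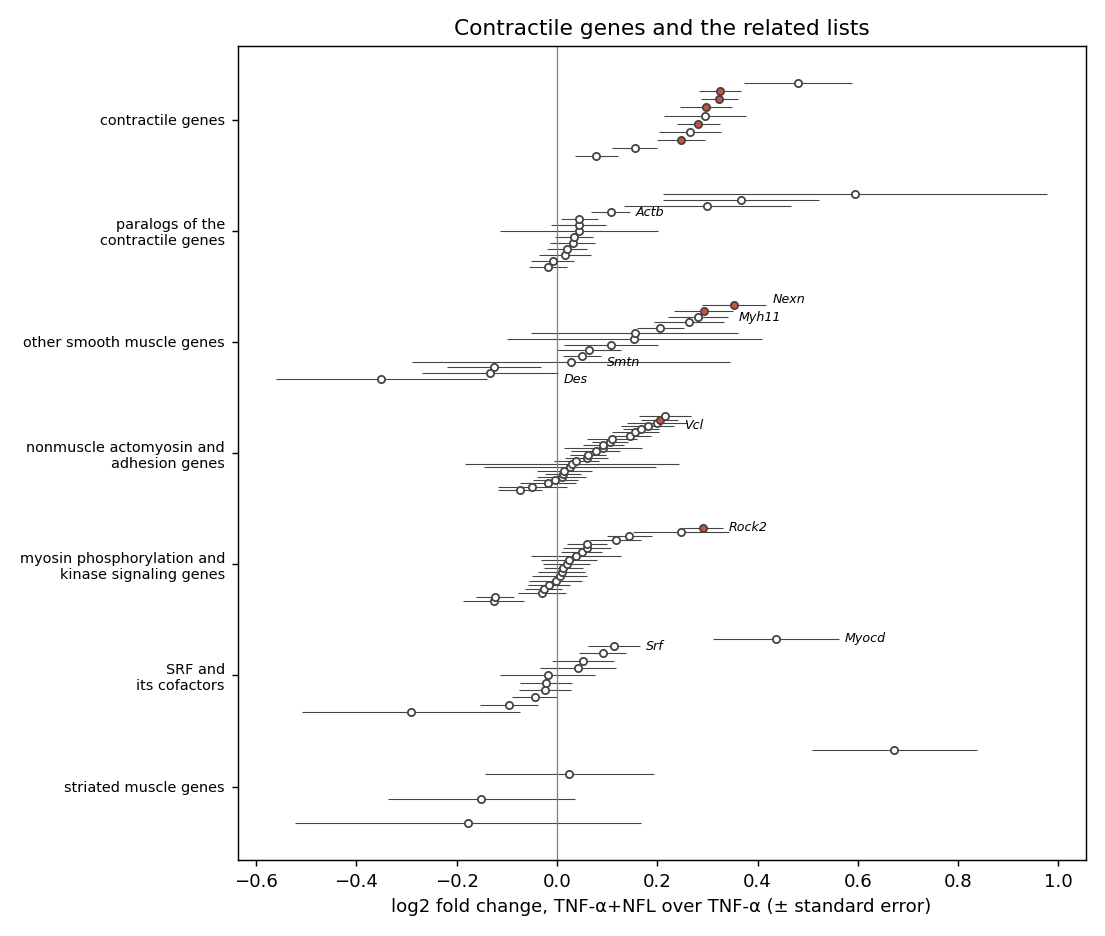
Log2 fold change (horizontal axis) with its standard error for each tested gene of the contractile set and of the 6 related lists (vertical axis, ordered by value within a list). Filled points passed an adjusted p of 0.05 in edgeR. The contractile genes, chosen on this contrast, lie between 0.079 and 0.48, and the medians of the related lists lie between -0.063 and 0.13 with all 6 libraries.

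Among the markers of other cells, 28 of 45 were tested, and 1 was called higher and 1 lower (background 0.408% and 0.204%). Mcam, a marker of pericytes and smooth muscle, rose from 20.6 ± 0.288 to 27.2 ± 0.716 TPM, a log2 fold change of 0.37 (adjusted p = 0.00556, edgeR). Of the 6 pericyte markers tested, 4 had a log2 fold change above 0 and 2 below, with a median of 0.059 (-0.00083 when TNF-α replicate 2 was left out, 0.18 when replicate 1 was), and Cspg4, at -0.24 (adjusted p = 0.217, edgeR), was separated downward. With the length trend removed, Cspg4 was called lower (-0.28, adjusted p = 0.000802). Pdpn, a marker of synovial fibroblasts, was at 481 ± 28.5 and 423 ± 7.19 TPM and fell by 0.20 on the log2 scale (adjusted p = 0.0305, edgeR). Of the 6 markers of synovial lining and fibroblasts, 3 were above 0 and 3 below, with a median of 0.021 (-0.020 when TNF-α replicate 3 was left out, 0.075 when replicate 1 was). The call of Mcam held without TNF-α replicate 1, TNF-α replicate 3 or TNF-α+NFL replicate 3, and that of Pdpn only without TNF-α replicate 1. With all 6 libraries, the 2 adipocyte and 2 macrophage markers tested gave no call by edgeR or limma-voom, and 1 of them (Cd14, lower) had an unadjusted p under 0.05. DESeq2 gave an adjusted p for Cd14 alone among them and did not call it. Without TNF-α replicate 1, edgeR called Cd14 lower, and the chondrocyte marker Col11a1, the pericyte marker Pdgfrb and the fibroblast marker Col1a1 higher. In that fit 3.43% of all genes were called higher and 3.51% lower.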

How the data were processed

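RNA of 6 libraries of rat chondrocytes, 3 of the TNF-α group and 3 of the TNF-α+NFL group, was sequenced by the authors from poly(A) RNA as single-end reads. For each gene the authors deposited an estimated count, not normalized and often fractional, with FPKM and TPM values, which they scaled to transcript length and library depth. The submitters' processing notes name HISAT2 2.0.4, Bowtie2 2.2.5, RSEM 1.2.12 and the genome Rnor_6.0, without their roles.

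After rounding, the counts were compared in R 4.3.3 by the robust quasi-likelihood test of edgeR 4.0.16 (genes kept by filterByExpr, TMM, two-sided, Benjamini-Hochberg over 13250 genes). A standard error is the log2 fold change divided by the square root of F. TPM values were used for levels, and for sums, shares and ratios set side by side between groups, and no test was run on them. The biological coefficient of variation was 6.39%. Alternatives used DESeq2 1.42.0, limma 3.58.1 with voom or on log2(FPKM + 1) and log2(FPKM + 0.1), other filters, a replicate block, and leaving out each library. Removing each library's trend with transcript length was chosen after seeing the data.

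The contractile genes, the 6 related lists, the 7 marker lists and the genes named were chosen with earlier results of these data known. All contractile genes are named, as are the related genes past an adjusted p of 0.05, 16 others named whatever their values, and the markers with the highest and lowest level. Sox9, Col2a1, Col1a1, Rgs5, Mcam, Pdpn, Cspg4, Tmod2 and Casq2 were added after their values were seen. Promoter sequences are from RefSeq (GRCr8) and were matched by Entrez gene ID. Its build differs from that of the counts, so no signal was read at these coordinates.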

Additional observations from a re-analysis of the deposited data

How the results depend on the processing

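Each of the 10 contractile genes kept a log2 fold change above 0 under all 15 alternatives (150 of 150 values), and 3 values moved by more than the spread of replicates. The median over the 10 genes lay between 0.26 and 0.32 in all of them. The calls were less stable. With a replicate block (replicate number as a term), 3 contractile genes (Acta2, Cald1 and Myl9), 2 related genes and 34 of all genes were called. Myh11 (adjusted p = 0.0617), Nexn (0.0581), Vcl (0.0903) and Pdpn (0.0903) were then not called in edgeR. The numbers did not pair the samples, since same-numbered libraries deviated with a correlation of 0.0302, -0.0237 and 0.10. On log2(FPKM + 1), 0 contractile genes, 0 related genes and 6 of all genes were called by limma, and on log2(FPKM + 0.1) 2, 1 and 13. The edgeR test on counts, another test and measure, gave an unadjusted p under 0.05 for 1472 genes. The DESeq2 Wald test called 148 of all genes, 8 related genes and 6 contractile genes. It gave no adjusted p for Actg2, Cnn1 and 24 of the 85 related genes, Acta1, Des, Mylk and Nexn among them. Without a filter on low counts, 132 of all genes and 7 related genes were called. With the length trend removed, 236 of all genes, 10 contractile genes and 10 related genes were called. The median of the 14 other smooth muscle genes was 0.085 in that fit, against 0.13 in the main fit. On log2(FPKM + 1) and log2(FPKM + 0.1) it was 0.041 and 0.055. Over the fits that left out 1 library, the calls ran from 5 to 930 of all genes, from 0 to 8 contractile genes and from 0 to 21 related genes. DESeq2's size factors, limma-voom and a minimum of 10 counts in every library kept each count within 1.5 times.

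Of 311 values of the 21 other genes named with a fold change, 256 kept their direction and side of the threshold, 40 lost the call, 6 gained it and 9 changed sign. The sign changes were near 0 on both sides. Over the fits that left out 1 library, Actg1 ran from -0.0058 to 0.0507, Cnn3 from -0.0065 to 0.0723, Myl12a from -0.0232 to 0.0846, Tagln2 from -0.0459 to 0.0216 and Myl12b from -0.0353 to 0.0028. The changes of Actg1, Cnn3 and Myl12a arose without TNF-α replicate 1. With the length trend removed, Tagln2 was at 0.029 and Myl12b at 0.0239. The cause was not tested. Among the contractile genes, depth limits Cnn1 most, at 110 to 177 estimated counts per library.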
